A study of Mus musculus with 20 samples.

Results

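The genes described here are 9 activity- and stress-responsive genes of cultured mouse hippocampal neurons: Gadd45a, Gadd45b, Gadd45g, Plk2, Plk3, Inhba, Btg1, Btg2 and Bcl6. They were taken by name from the probe annotation of the arrays, which gave 13 of 41174 probes and, after 1 probe was read per gene, 9 of 19338 genes. Gadd45b had 2 probes, Btg1 had 2, Btg2 had 3 and each of the others 1. All 13 probes were well above background in both dyes on all 20 arrays.

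Dissociated hippocampal neurons were kept in 6-well plates and treated on day 21 in culture for 24 h, in 4 groups of 5 arrays. The control group received vehicle. The AP5 group received 100 µM AP5, a competitive antagonist of the NMDA receptor, the glutamate-gated calcium channel of excitatory synapses. The NVP group received 100 nM NVP-AAM077, an antagonist described as preferring receptors with the GluN2A subunit, and the Ro25 group received 1 µM of a compound given in the labels by a code that begins with Ro25, whose preferred subunit is not stated here. Each sample was labelled with Cy5 and hybridised against a universal mouse reference RNA in Cy3 on a 2-colour Agilent array, so a level below is log2(Cy5/Cy3), the sample over the reference. The strain, age and sex of the mice are not given in the sources used here. The labels do not tell whether a group's 5 arrays are separate cultures, so its spread may be technical and the p-values cover that spread alone.

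Calcium entering through synaptic NMDA receptors reaches the nucleus and switches on immediate-early and later genes, several of which have been described as protecting neurons. Gadd45 proteins are small stress sensors that bind the MAP kinase kinase kinase MEKK4, PCNA and the CDK1-cyclin B complex, and Gadd45b has been linked to activity-driven DNA demethylation in the hippocampus. Plk2 and Plk3 are polo-like kinases induced by activity and stress, and Plk2 is known for weakening overactive synapses. Inhba encodes the βA subunit that forms activin A, a secreted TGFβ-family ligand. Btg1 and Btg2 belong to the antiproliferative BTG/TOB family, which recruits the CCR4-NOT deadenylase, and Bcl6 is a transcriptional repressor that works with BCOR, NCOR and histone deacetylases.

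Of the 9 genes, 3 were lower with AP5 than with vehicle, and 3.59% of all genes were: 1 of the 3 Gadd45 genes, 1 of the 2 polo-like kinases and 1 of the 2 BTG genes. Gadd45b was 2.13-fold and Plk3 2.10-fold lower than in vehicle, and Btg2 was 1.21-fold lower. Gadd45a, Gadd45g, Plk2, Inhba, Btg1 and Bcl6 did not pass the test. With NVP or Ro25, 0 of the 9 genes passed, as did 0% of all genes with NVP and 0.0155% with Ro25.

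**Figure D1:**
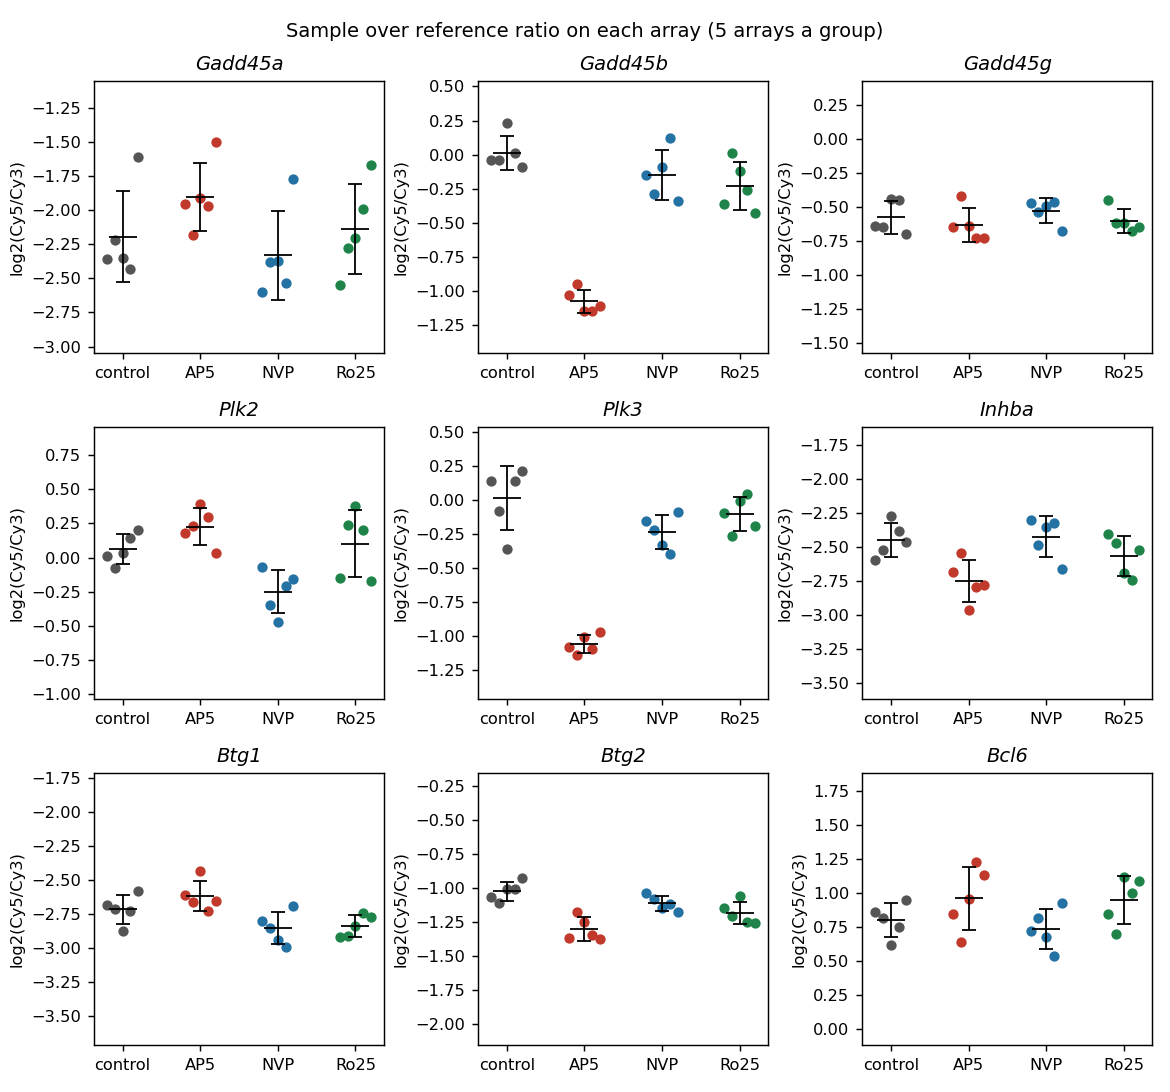
Level of each gene, log2(Cy5/Cy3), on every array (points, 5 a group, drawn in the order of the array numbers), with the mean and SD of the group (black); each panel spans 2 log2 units around its own centre. The 5 AP5 points of Gadd45b and of Plk3 lie apart from every other point of the panel, and array 5 is the highest of each group for Gadd45a.

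The 250 bases before the transcription start are shown for the 3 genes that passed the test with AP5. They are also shown for Plk2, the other polo-like kinase, which did not pass it. They are RefSeq sequences of build GRCm38.p6, written 5′ to 3′ on the strand of the gene. Capitals mark the cyclic AMP response element (CRE, TGACGTCA), the site of the activity-regulated factor CREB, or its half-site TGACG, on either strand.
Gadd45b (chr10:80929841-80930090, strand +): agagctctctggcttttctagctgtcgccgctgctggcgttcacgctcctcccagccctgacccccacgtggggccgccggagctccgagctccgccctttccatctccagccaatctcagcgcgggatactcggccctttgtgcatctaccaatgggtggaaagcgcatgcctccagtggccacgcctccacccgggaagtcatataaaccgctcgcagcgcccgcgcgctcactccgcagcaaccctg
Plk3 (chr4:117133964-117134213, strand -): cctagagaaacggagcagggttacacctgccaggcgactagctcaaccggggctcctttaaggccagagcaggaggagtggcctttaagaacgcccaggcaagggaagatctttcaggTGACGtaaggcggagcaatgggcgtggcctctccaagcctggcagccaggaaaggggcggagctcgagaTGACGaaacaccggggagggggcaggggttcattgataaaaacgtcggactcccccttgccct
Btg2 (chr1:134079156-134079405, strand -): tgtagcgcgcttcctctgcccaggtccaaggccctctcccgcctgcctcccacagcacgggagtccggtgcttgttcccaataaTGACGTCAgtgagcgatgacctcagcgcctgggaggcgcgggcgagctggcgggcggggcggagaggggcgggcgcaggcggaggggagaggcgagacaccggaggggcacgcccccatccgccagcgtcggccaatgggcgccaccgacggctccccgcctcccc
Plk2 (chr13:110394794-110395043, strand +): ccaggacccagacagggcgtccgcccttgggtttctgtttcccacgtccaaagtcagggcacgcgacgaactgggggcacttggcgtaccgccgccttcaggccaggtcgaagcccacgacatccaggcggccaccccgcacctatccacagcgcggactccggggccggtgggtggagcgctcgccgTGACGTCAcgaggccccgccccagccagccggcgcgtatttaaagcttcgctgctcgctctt

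A full CRE lay 166 bases before the start of Btg2 and 62 bases before that of Plk2, and each such match also counts as 2 overlapping half-sites. Plk3 held 2 half-sites, 132 and 63 bases before its start, and the printed window of Gadd45b held neither form. All 9 genes matched the RefSeq table, with 10 windows because Bcl6 had 2. Half-sites were found in 5 of the 9 genes (Btg2, Plk2, Plk3, Btg1 and Bcl6) and a full CRE in 2. Of 32851 promoter windows of the same length, 17.8% held a half-site and 1.55% a full CRE. The E-box CACGTG was found in Gadd45b, Gadd45g and Bcl6, against 6.02% of all windows. The EGR site GCGGGGGCG and the CArG box of serum response factor were found in 0 of the 9 genes, against 2.57 and 1.47% of all windows. A full CRE stood in 1 gene that passed the test as lower with AP5 (Btg2) and in 1 that did not pass (Plk2). As given below, Btg2 did not pass in every setting and the sign of Plk2 depended on the setting.

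The cultures were checked against cell type markers. All 9 neuronal markers, led by Tubb3, and all 8 astrocyte markers, led by Gfap, were well above background on all 20 arrays. So were Gad1 of inhibitory neurons, Mbp of oligodendrocytes and all 4 fibroblast markers, led by Col1a1. Of the 6 inhibitory neuron markers, Pvalb was above background on 18 arrays and Vip on 6. Of the 7 oligodendrocyte markers, Mog was above it on 0, and the rest of both lists on 20. Of 7 microglial markers, Csf1r, Aif1 and Tyrobp were above background on 20 arrays, Cx3cr1 on 16 and C1qa, P2ry12 and Itgam on 0. Of 4 endothelial markers, Tek was above background on 14 arrays, Cldn5 on 9 and Pecam1 and Cdh5 on 0. By this criterion the cultures held neurons together with glia, and fibroblast markers were detected as well. Relative to the reference, mean control levels were 4.69 for neuronal, 4.39 for astrocyte and 1.94 for oligodendrocyte markers. They were -1.77 for the tested microglial and -3.99 for fibroblast markers. Mean neuronal marker levels ran from 4.51 to 4.85 on control arrays, 4.17 to 4.86 with AP5, 4.67 to 4.97 with NVP and 4.69 to 4.82 with Ro25. Mean astrocyte levels ran from 3.93 to 4.59, 3.31 to 4.98, 3.91 to 4.85 and 3.81 to 4.86 in the same order, and AP5 array 1 was the lowest of all arrays for both lists. Of the tested markers, 0 of 9 neuronal and 0 of 8 astrocyte genes were called with AP5, while 1 of 4 microglial genes was higher and 1 of 4 fibroblast genes lower. In RNA from a whole well, fewer cells of a type and less RNA per cell cannot be told apart.

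The arrays numbered 5 deviated together in all 4 groups. Their deviations from the group means correlated at 0.57 to 0.76 over genes, with a mean of 0.66. For the other numbers the mean correlations were -0.13 to 0.04, and single pairs ran from -0.45 to 0.51. Results are therefore also given without the arrays numbered 5 where that changes a call. The arrays lay on 7 slides. The AP5 and NVP arrays shared no slide with a control array, and control array 3, beside 3 Ro25 arrays, was the only control that shared a slide with another group. A fit with slide as a block therefore reaches AP5 against control only through that array.

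These counts, 3 lower and 0 higher of 9, are calls at an adjusted p under 0.05 (limma with Benjamini-Hochberg adjustment over all 19338 genes). Of all genes, 6.12% were called, 3.59% lower and 2.53% higher. The median difference of the 9 genes was -0.06, against -0.01 over all genes tested. All 3 called genes had groups that did not overlap, as did 3.91% of all genes in the lower direction.

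Gadd45b was read at 10:80721751-80721810 on the plus strand of mm7, the build of the array files. Its level on the 5 control arrays was -0.04, -0.04, 0.23, 0.01 and -0.09. On the AP5 arrays it was -1.03, -0.95, -1.15, -1.15 and -1.11. Every AP5 array lay below every control array, with a wide gap between the groups. The difference was -1.09 (SE 0.09, 95% interval -1.29 to -0.90, limma adjusted p = 2.25e-07), 2.13-fold lower and rank 23 of all genes by p.

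On the NVP arrays Gadd45b was at -0.15, -0.29, -0.09, 0.12 and -0.34, and on the Ro25 arrays at -0.36, 0.01, -0.12, -0.26 and -0.43. Both groups overlapped control. The order of the group means was control 0.01 ± 0.13, NVP -0.15 ± 0.18, Ro25 -0.23 ± 0.18 and AP5 -1.08 ± 0.09 (SD, n = 5 each). The steps from control to NVP (-0.16, interval -0.36 to 0.03) and from Ro25 to NVP (0.08, interval -0.11 to 0.28) had intervals that include 0. The interval of Ro25 against control (-0.25, interval -0.44 to -0.05) leaves out 0, but that difference did not pass the test (limma adjusted p = 0.928). AP5 lay below Ro25 by a difference of -0.84 (limma adjusted p = 1.2e-05).

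A second Gadd45b probe, at 10:80721228-80721287, lay upstream of the first in the same transcript. Its mean level was -1.59 ± 0.19 in control and -2.32 ± 0.18 with AP5 (SD, n = 5 each). The difference of -0.73 (SE 0.12) had an adjusted p of 0.000845 in the limma fit over 28498 probes, where 2.87% of probes were called lower. Both probes of the gene were thus lower with AP5, the second by less. With NVP the second probe was higher than control by 0.20 and the first lower by 0.16, neither past the test.

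Plk3 was read at 4:116505151-116505210 on the minus strand. Its level on the control arrays was 0.14, -0.08, -0.36, 0.14 and 0.21. On the AP5 arrays it was -1.08, -1.14, -1.01, -1.10 and -0.97. The AP5 arrays lay together and below every control array, and control array 3 was the lowest control. The difference was -1.07 (SE 0.09, interval -1.27 to -0.87, limma adjusted p = 3.56e-07), 2.10-fold lower.

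On the NVP arrays Plk3 was at -0.16, -0.22, -0.33, -0.40 and -0.09, and on the Ro25 arrays at -0.10, -0.27, -0.01, 0.04 and -0.19. Both groups overlapped control. The means were 0.01 ± 0.23 in control, -0.11 ± 0.13 with Ro25, -0.24 ± 0.13 with NVP and -1.06 ± 0.07 with AP5 (SD, n = 5 each). Neighbours among the first 3 were not separated by the test. NVP against control (-0.25, interval -0.45 to -0.05) had an interval that leaves out 0, but it did not pass either (limma adjusted p = 0.72). AP5 lay below NVP by a difference of -0.82 (limma adjusted p = 1.73e-05).

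Btg2, with the full CRE shown in its window, was read at 1:133965302-133965361 on the minus strand. Its level on the control arrays was -1.07, -1.11, -1.01, -1.01 and -0.93. On the AP5 arrays it was -1.37, -1.18, -1.25, -1.35 and -1.38. The groups did not overlap, but the nearest arrays of each were only -1.18 and -1.11. The difference was -0.28 (SE 0.06, interval -0.40 to -0.16, limma adjusted p = 0.0047), 1.21-fold lower.

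Without the arrays numbered 5 of every group the Btg2 difference was -0.24 and its limma adjusted p 0.0517. The other 2 Btg2 probes differed by -0.38 and -0.35 between AP5 and control, with limma adjusted p of 0.107 and 0.089 over all probes, so they had the same direction without passing the test. NVP arrays stood at -1.04 to -1.18 and Ro25 arrays at -1.06 to -1.26, both overlapping control.

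Exact two-sided permutation tests over the arrays gave p = 0.00794 for Gadd45b, Plk3 and Btg2, the smallest value that the 252 splits of 5 against 5 arrays allow. Groups that do not overlap always reach this value, so it restates the lack of overlap given above and is unadjusted. With slide as a block 1 of the 9 genes was called, against 0.212% of all genes, and 8 of the 9 kept their sign. Gadd45b was then at -1.67 (SE 0.20, limma adjusted p = 0.00403), Plk3 at -0.52 (SE 0.17, 0.198) and Btg2 at -0.43 (SE 0.15, 0.213). These blocked values rest on control array 3, on which Plk3 was the lowest and Gadd45b the highest of the controls. Within the first of 3 scan days, which holds all arrays but 3, Gadd45b differed by -1.08, Plk3 by -1.08 and Btg2 by -0.28, all called.

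**Figure D2:**
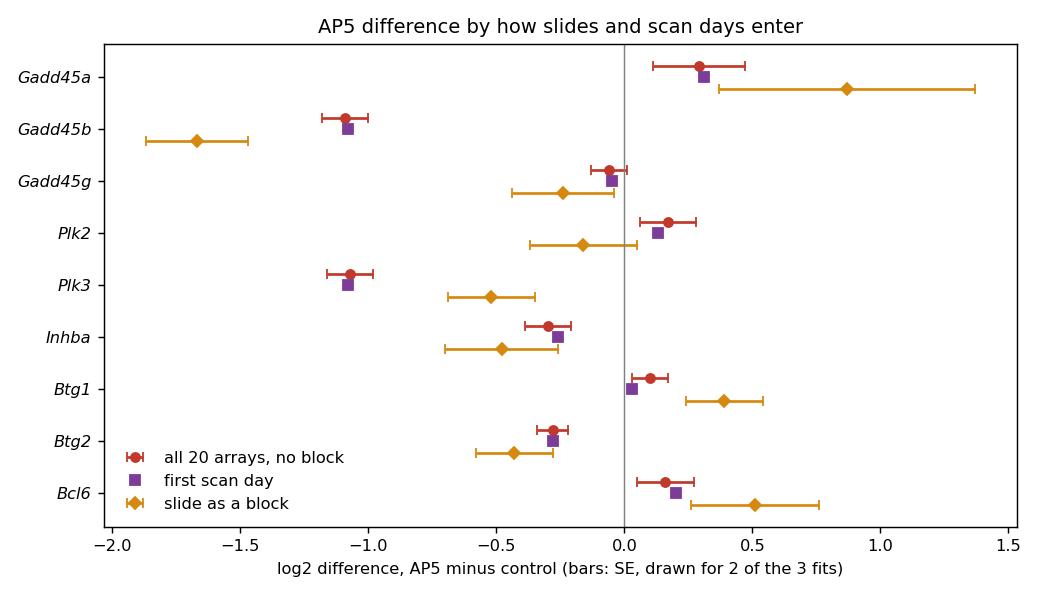
Difference in log2 level between AP5 and control for the 9 genes, from all arrays without a block (circles, with SE), from the first scan day alone (squares) and with slide as a block (diamonds, with SE). Circles and squares nearly coincide, while the blocked value is -1.67 for Gadd45b and -0.52 for Plk3 against -1.09 and -1.07 without the block, and Plk2 crosses 0.

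Inhba, the activin βA subunit, did not pass the test against control. It was read at 13:15394279-15394338 on the plus strand. Its level was -2.59, -2.52, -2.27, -2.38 and -2.46 on the control arrays and -2.68, -2.54, -2.96, -2.79 and -2.78 on the AP5 arrays. The groups overlapped by 1 AP5 array, array 2, which lay above control array 1. The difference was -0.30 (SE 0.09, interval -0.49 to -0.11) with a limma adjusted p of 0.0531 and an exact two-sided permutation p of 0.0159. Without AP5 array 2 it was -0.36 (limma adjusted p = 0.0258), without control array 1 it was -0.34 (0.049), and without AP5 array 3 it was -0.25 (0.145). It was also called with the scanner's processed signals (-0.38, 0.0229), with probes above background on all 20 arrays (-0.30, 0.0445) and with slide as a random block (-0.30, 0.0458). The other 8 of 11 settings gave no call. Among them were slide as a fixed block (-0.48, 0.293), the first scan day (-0.26, 0.2) and median centring (-0.18, 0.966). Of 11 sets with arrays left out, 9 gave no call. Inhba thus lay close to the threshold in the main fit and was not called in most others.

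Plk2, whose window also holds a full CRE, stood at 0.01, -0.08, 0.03, 0.14 and 0.20 on the control arrays and at 0.18, 0.23, 0.39, 0.30 and 0.03 on the AP5 arrays. The groups overlapped, and the difference of 0.17 (interval -0.05 to 0.39, limma adjusted p = 0.466) turned to -0.16 with slide as a block. Without the block, the interval leaves out a fall of the size that the same fit gave for Plk3 (-1.07). This does not extend to the blocked fit, where Plk2 had an SE of 0.21 and Plk3 stood at -0.52 (SE 0.17). Its probe lay at 13:107549252-107549311 on the plus strand.

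Gadd45a, the family member best known as a target of p53, stood at -2.36, -2.22, -2.35, -2.43 and -1.61 on the control arrays and at -1.95, -2.18, -1.91, -1.97 and -1.50 on the AP5 arrays. Array 5 was the highest of both groups, and of the NVP (-1.77) and Ro25 (-1.67) groups, by 0.41 to 0.58 over the group mean. The difference between AP5 and control was 0.29 (SE 0.18, interval -0.09 to 0.67, limma adjusted p = 0.452). It ran from 0.28 to 0.87 over the 11 other settings and from 0.19 to 0.44 over the 11 sets with arrays left out. None of these gave a call, and the lowest limma adjusted p were 0.0612 and 0.0859. Gadd45g, read from 1 probe, stood between -0.73 and -0.42 on all 20 arrays, and its difference with AP5 was -0.06 (interval -0.21 to 0.10), or 0.09 under median centring in place of loess.

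Btg1 stood at -2.87 to -2.58 on the control arrays and -2.73 to -2.43 on the AP5 arrays, a difference of 0.10 (interval -0.05 to 0.25, limma adjusted p = 0.54). Its second probe gave 0.07. Bcl6 stood at 0.62 to 0.95 in control and 0.64 to 1.23 with AP5, a difference of 0.16 (interval -0.06 to 0.38, 0.482). Both genes thus overlapped control with AP5, and neither interval, from the fit without a block, reaches a 2-fold change. With slide as a block Btg1 was at 0.39 (SE 0.15) and Bcl6 at 0.51 (SE 0.25).

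The members of a family were compared on the same arrays by the difference between 2 genes' log2 ratios, a comparison added after the values had been seen. With AP5 the Gadd45b minus Gadd45g difference was -0.44 ± 0.08, against 0.59 ± 0.08 in control (SD, n = 5 each). This contrast of -1.03 (SE 0.05) had no overlap of arrays. Gadd45b minus Gadd45a shifted by -1.38 (SE 0.23), Plk3 minus Plk2 by -1.24 (SE 0.12) and Btg2 minus Btg1 by -0.38 (SE 0.07). The exact two-sided permutation p was 0.00794 for each of these 4, the value that groups without overlap always reach, unadjusted among 15 such tests. Gadd45a minus Gadd45g shifted by 0.35 (SE 0.25, exact permutation p = 0.206). With NVP and Ro25, which share the control arrays with AP5, the 10 shifts lay between -0.30 and 0.08, and the lowest exact permutation p was 0.0159, for Gadd45b minus Gadd45g with NVP (-0.21, SE 0.06).

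NVP against control gave 0 of 9 called, as for all genes (0% in limma). At an unadjusted p under 0.05 there were 2 of 9, against 5.87% of all genes. They were Plk2 and Plk3. Plk2 stood at -0.07, -0.35, -0.47, -0.21 and -0.16 with NVP. Of these, 1 array, array 1, lay within the control range. The difference was -0.31 (interval -0.53 to -0.09, limma adjusted p = 0.674, exact two-sided permutation p = 0.0159). Plk3 differed by -0.25 (interval -0.45 to -0.05, limma adjusted p = 0.72). The other 7 genes lay between -0.16 and 0.05, and Gadd45b differed by -0.16 (interval -0.36 to 0.03), or by -0.67 (SE 0.19, limma adjusted p = 0.732) with slide as a block.

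Ro25 against control gave 0 of 9 called, against 0.0155% of all genes, and 2 of 9 at an unadjusted p under 0.05, against 4.34% of all genes. Gadd45b differed by -0.25 (interval -0.44 to -0.05, limma adjusted p = 0.928, exact two-sided permutation p = 0.0476) and Btg2 by -0.16 (interval -0.28 to -0.04, 0.858, exact permutation p = 0.0238). On the slide that holds 3 Ro25 arrays and control array 3, Gadd45b differed by -0.58 and Plk3 by 0.28. The other 7 genes lay between -0.12 and 0.15.

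**Figure D3:**
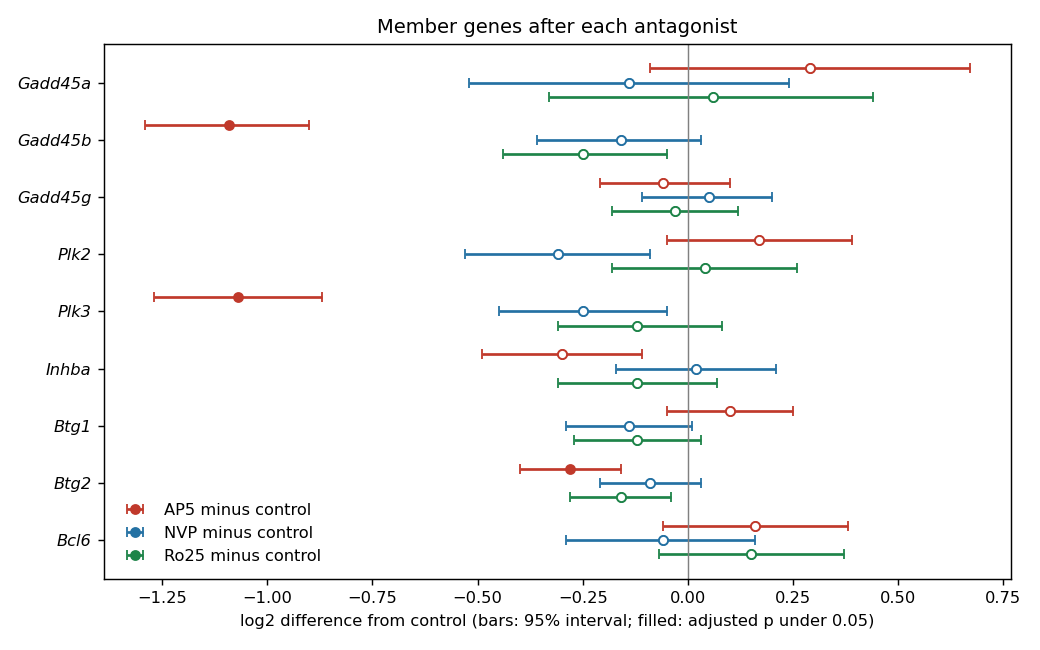
Difference in log2 level from control for the 9 genes after AP5, NVP and Ro25, with 95% intervals from the limma fit; filled points have an adjusted p under 0.05. Filled points are those of Gadd45b, Plk3 and Btg2 with AP5, and the NVP and Ro25 intervals of Gadd45b and Plk3 lie above those of AP5.

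The antagonists were compared with each other over the 3 pairs, at doses that differ (100 µM, 100 nM and 1 µM), so a difference is one between these treatments. AP5 against NVP gave 3 of 9 lower and 1 higher, against 3.09 and 2.69% of all genes (5.78% in all). Gadd45b was lower with AP5 by a difference of -0.93 (interval -1.12 to -0.73, limma adjusted p = 3.21e-06) and Plk3 by -0.82 (interval -1.02 to -0.62). Both were called with slide as a block, at -0.99 (limma adjusted p = 0.00171) and -0.67 (0.0128), where 0.558% of all genes were called. On the slide that held AP5 array 5 and 3 NVP arrays they differed by -1.02 and -0.66. Under median centring neither Gadd45b (-0.80, limma adjusted p = 0.126) nor Plk3 (-0.76, 0.181) was called.

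Plk2 was the member that was higher, by 0.48 (interval 0.26 to 0.70, limma adjusted p = 0.0082), 1.39-fold. The arrays of the 2 groups did not overlap, the lowest AP5 array being at 0.03 and the highest NVP array at -0.07. The call was lost with slide as a block (0.39, 0.226), within the first scan day (0.44, 0.0645) and under median centring (0.69, 0.329). Groups that did not overlap numbered 4 of 9 (Gadd45b, Plk3 and Btg2 lower, Plk2 higher), against 3.74 and 3.21% of all genes.

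Inhba was lower with AP5 than with NVP by a difference of -0.33 (limma adjusted p = 0.0364). That call did not hold without AP5 arrays 3, 4 or 5 or NVP arrays 1, 2, 3 or 4, each left out in turn, with adjusted p between 0.0623 and 0.114. Of 11 other settings, 6 gave the call. It was lost with slide as a fixed block (-0.40, 0.225), on the first scan day (-0.28, 0.186) and under median centring (-0.20, 0.911). The replicate block (-0.33, 0.0569) and the compared groups alone (-0.33, 0.0801) lost it too. Btg1 differed by 0.24 (0.0538) and was called without AP5 array 4 (0.27, 0.0478) or NVP array 5 (0.28, 0.0242), and without the arrays numbered 5 of every group (0.29, 0.0421). Btg2 differed by -0.19 (0.054) and was called without AP5 array 2 (-0.22, 0.0281) or NVP array 5 (-0.21, 0.0462). Gadd45a differed by 0.43 (0.205) and by 0.47 (0.0147) without the arrays numbered 5.

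AP5 against Ro25 gave 2 of 9 lower and 0 higher, against 1.97% lower, 1.13% higher and 3.1% called in all. Gadd45b differed by -0.84 (interval -1.04 to -0.65) and Plk3 by -0.96 (interval -1.15 to -0.76, limma adjusted p = 3.75e-06). With slide as a block, 2 of 9 were called, Gadd45b at -1.08 and Plk3 at -0.79, against 1.06% of all genes. They differed by -1.04 and -0.81 on the slide that held AP5 array 1 and Ro25 array 2. Neither Gadd45b (-0.77, limma adjusted p = 0.201) nor Plk3 (-0.92, 0.0827) was called under median centring. Btg1 was higher by 0.22 (limma adjusted p = 0.112). These 3 genes had arrays that did not overlap, Gadd45b and Plk3 lower and Btg1 higher, against 2.6 and 1.34% of all genes. NVP against Ro25 gave 0 of 9 called, with 0% of all genes. At an unadjusted p under 0.05 there was 1 of 9, against 5.91% of all genes, Plk2 at -0.35 (interval -0.57 to -0.13, limma adjusted p = 0.742). The comparisons with AP5 share its 5 arrays.

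The genes around the members were read from 6 lists. Of 20 genes for partners of the Gadd45 proteins and the stress kinase cascade, 2 were lower with AP5, 1 was higher and the median was -0.03, against 3.59 and 2.53% of all genes called lower and higher. Map2k6, a p38 kinase kinase, differed by 0.23 (limma adjusted p = 0.0188), Pcna, the replication clamp, by -0.27 (0.0247) and Ccnb1, cyclin B1, by -0.46 (0.0395). Cdkn1a, a p53 target like Gadd45a, differed by 0.00 (0.993). With slide as a block none of the 3 was called, with values of 0.29 (0.314) for Map2k6, -0.04 (0.936) for Pcna and -0.26 (0.744) for Ccnb1. In the value table Map2k6 differed by 0.01 (0.976), and as the mean of its probes by 0.12 (0.336). Each of the 3 calls was also lost when certain arrays were left out. For Pcna these were AP5 array 3 or 4 or control array 2 (-0.26 to -0.22) or control array 5 (-0.27), and for Map2k6 AP5 array 4 or control array 3 (0.20 each). Of single arrays left out, Ccnb1 was called only without AP5 array 1 or control array 4 (-0.50 and -0.51). Without the arrays numbered 5 of every group, Map2k6 was at 0.22 (0.0905), Pcna at -0.30 (0.05) and Ccnb1 at -0.45 (0.132), none called.

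Of 11 tested genes of 12 on the list of polo-like kinases and the spine proteins acted on by Plk2, 1 was lower with AP5 and the median was 0.01. It was the mitotic kinase Plk1, at -2.09 ± 0.13 in control and -2.48 ± 0.09 with AP5 (SD, n = 5 each), a difference of -0.40 (SE 0.09, limma adjusted p = 0.00826). Its value with slide as a block was also -0.40 (0.411). Sipa1l1, a RapGAP that Plk2 targets for degradation, differed by 0.01 (0.983).

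The activin list had 4 called genes among 17 tested of 18, with 2 lower, 2 higher and a median of -0.04. Inhbb, the βB subunit, stood at 1.42 ± 0.12 in control, 0.91 ± 0.12 with AP5 and 1.29 ± 0.10 with NVP (SD, n = 5 each), and at 1.31 to 1.68 on the Ro25 arrays. All its AP5 arrays (0.71 to 1.04) lay below all control arrays (1.31 to 1.63), and the difference was -0.51 (SE 0.08, limma adjusted p = 0.000409). Smad7, the inhibitory Smad that is itself a target of TGFβ-family signalling, differed by -0.41 (SE 0.08, 0.00339).

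Fst, follistatin, the secreted protein that binds and blocks activin, was higher with AP5 by 0.49 (SE 0.09, limma adjusted p = 0.00127). Its levels were -1.43 ± 0.15 in control and -0.95 ± 0.15 with AP5 (SD, n = 5 each), and it was above background on 4 of 5 control arrays and all AP5 arrays. Acvr1b, the type I activin receptor ALK4, was higher by 0.51 (SE 0.11, 0.00519). With slide as a block none of the 4 was called, with values of -0.66 for Inhbb, -0.71 for Smad7, 0.16 for Fst and -0.07 for Acvr1b. Under median centring none of the 4 was called either, with adjusted p from 0.193 for Fst to 0.833 for Smad7. As the mean of its probes Acvr1b was at 0.32 (0.059) and not called, and Inhbb at -0.29 (0.00797). With the scanner's processed signals Fst was at 1.12 (0.000483).

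Of 11 BTG/TOB and CCR4-NOT genes, 1 was lower with AP5 and the median was 0.01. Btg3 stood at -0.35 ± 0.15 in control and -1.15 ± 0.26 with AP5 (SD, n = 5 each), a difference of -0.80 (SE 0.11, limma adjusted p = 0.00012) or -0.23 (0.677) with slide as a block. Its arrays did not overlap, ranging from -0.49 to -0.15 in control and from -1.49 to -0.89 with AP5. Tob1 and Tob2 differed by 0.08 and 0.07.

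Of 9 tested Bcl6 corepressor genes of 10, 2 were lower with AP5 and the median was -0.04. Hdac5, a class IIa deacetylase, differed by -0.27 (SE 0.05, limma adjusted p = 0.00427), or -0.39 (0.183) with slide as a block. Bcor, a corepressor named for binding Bcl6, differed by -0.40 (0.0475), and with a single array left out it was called only without AP5 array 1 (-0.46) or control array 2 (-0.45). Its difference was 0.09 (0.806) in the value table, -0.12 (0.388) as the mean of its probes, -0.93 (0.0816) with slide as a block and -0.36 (0.181) without the arrays numbered 5, so its direction depended on the setting.

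The list of other activity-regulated survival genes had 6 of 8 tested genes lower with AP5, of 9 listed, and a median of -1.36. Nr4a1, an orphan nuclear receptor and immediate-early gene, stood at -0.66 to 0.04 on control arrays and at -2.96 to -2.49 on AP5 arrays, a difference of -2.31 (SE 0.12, limma adjusted p = 1.5e-10). Ifi203, an interferon-inducible gene with closely similar neighbours in its family, differed by -2.35 (SE 0.13, 9.55e-10), and Bdnf, the neurotrophin, by -1.61 (SE 0.12, 5.59e-08). With AP5, 0 arrays measured Npas4, a transcription factor induced by calcium entry, well above background. Its log2 ratio differed by -1.53, 2.89-fold (limma adjusted p = 3.82e-08), a test that rests on those AP5 values. For its Cy5 signal, which was not tested, a bound put AP5 at least 3.04-fold below control. That bound sets the control mean (8.11 on the log2 scale) against the higher of the lowest signal above background and the signal of the probe itself on each AP5 array (mean 6.51), and it is open to dye bias. Atf3, a stress-induced factor, differed by 0.07 (0.793). Nr4a1, Ifi203 and Npas4 were called with slide as a block too, and Bdnf was not (-1.30, 0.134).

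Across the 6 lists NVP gave 0 calls against control, and Ro25 gave 1, Npas4, at -0.68 (limma adjusted p = 0.0473) or with slide as a block 0.575. The lists were drawn up with earlier results of these arrays known, so their counts are descriptions.

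**Figure D4:**
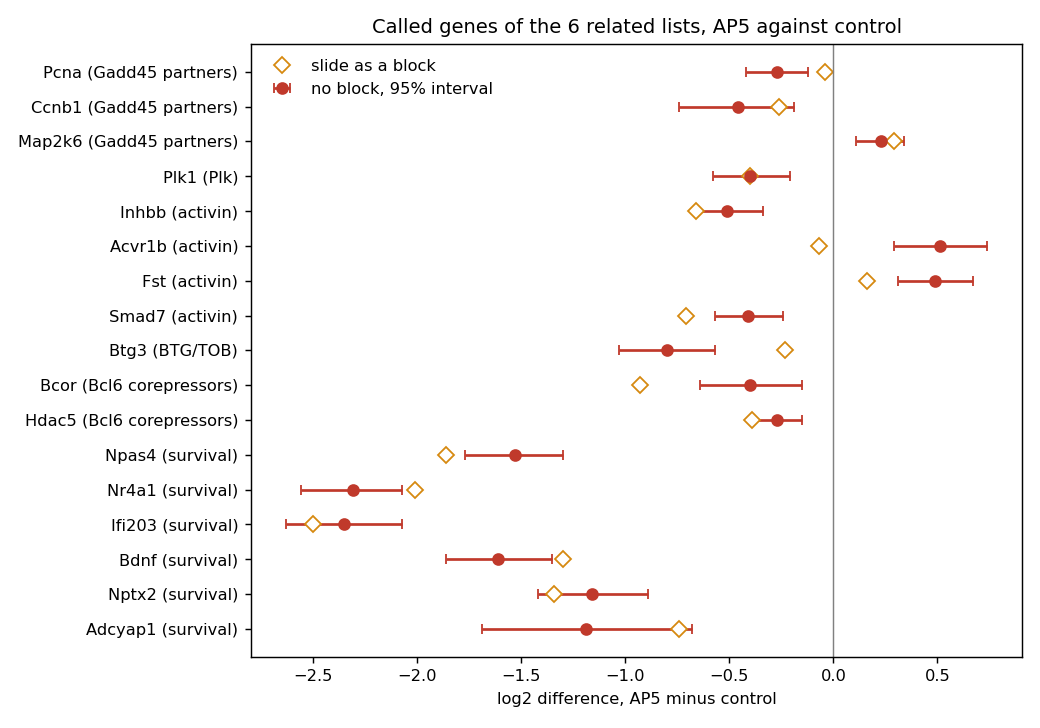
Difference in log2 level between AP5 and control for the 17 called genes of the 6 lists (circles, with 95% intervals), with the value when slide is a block (open diamonds). The survival genes lie furthest to the left, between -2.35 and -1.16, the circle of Npas4 is a measured value below background with AP5, and Acvr1b and Fst are the genes near 0.5.

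The genes whose levels followed each member most closely over the 20 arrays were named by Pearson's r, a description, since the arrays share their slides and, for called genes, the same separation of the AP5 group. For Gadd45b these were Egr3 (r = 0.97) and Arc (0.96), both activity-induced immediate-early genes, with AP5 differences of -1.77 and -2.65. After the group means were subtracted the r were 0.62 and 0.49. For Plk3 they were Ap3s1 (0.96, and 0.68 within groups) and Nr4a1 (0.96, and 0.55), and for Btg2 they were Rin1 (0.89, and 0.57) and Unc119b (0.88, and 0.73).

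For the 6 genes not called with AP5, the closest genes followed them within groups as well. Where groups differ little, r over all arrays is mostly r within groups, so this was partly built in by the choice. Plk2 went with Ift172 and Hyou1 (both 0.91, and 0.87 and 0.94 within groups), and Inhba with Tspan5 (0.91, and 0.85) and Dffa (0.90, and 0.83). Gadd45a went with Ctsc and Vwa5a (both 0.93, and 0.95 and 0.94 within groups), and Gadd45g with Kti12 and Stip1 (both 0.90, and 0.89 within groups). Btg1 went with Tsc22d3 (0.87) and Kdsr (0.85), and Bcl6 with Psmd5 (0.85) and Sumf1 (0.84). Among the members themselves, Gadd45b and Plk3 had r = 0.84 over the 20 arrays and -0.60 after group means were subtracted.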

How the data were processed

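The authors deposited scanner output of 20 Agilent 2-colour arrays, 5 in each of 4 groups taken from the sample titles. The deposited intensities of the spots are linear. The file headers give 10.7.3.1 as the version of the grid placement step, and the submitters' processing notes give Feature Extraction 11.0. The deposited log10 ratio of the scanner was not used beyond reading the direction, red over green. A value table of 20674 probes, also deposited by the authors, holds log2 ratios and served as an alternative. Its columns followed the scanner's processed ratio at r = 0.987 to 0.991 with slopes of 0.834 to 0.858, so its direction is sample over reference, while its centring and normalization stay unknown (column medians 0.0302 to 0.0626). The sample was in Cy5 and the reference in Cy3 on every array, so dye bias cancels only between groups.

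From the intensities, background was corrected with normexp (offset 50) and arrays were normalized by loess. Control spots and 86 to 172 outlier spots per array were left out, and 0 were saturated. Between 58.6 and 69.3% of probes passed the scanner's background test in red, and precision is limited by the number of arrays. Probes that passed it on 5 or more arrays were kept (28498), and a gene was read from its brightest probe. One limma model (3.58.1, R 4.3.3) with a mean per group was fitted over the 20 arrays, and all 6 contrasts between groups had two-sided tests, Benjamini-Hochberg adjusted, with a threshold of 0.05. The script was first tested on simulated data. Exact permutation tests over arrays were run for single genes. Named were all members, the called genes of each list (up to 4 by adjusted p), the 2 genes most correlated with each member and the first marker of each cell type. Cdkn1a, Sipa1l1, Tob1, Tob2, Atf3, Pvalb, Vip, Mog and the microglial and endothelial markers after the first were added to these after their values were seen. The members and lists were chosen with earlier results of these data known. Alternatives were the scanner's processed signals, median centring, 2 other filters, the value table, slide as a fixed and as a random block, the replicate number as a block, the first scan day, the mean of probes, the compared groups alone and each array left out. Leaving out the arrays numbered 5 together was added after seeing the data.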

Additional observations from a re-analysis of the deposited data

Results flagged for a closer look

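In 3 of 36 groups of 5 arrays, 1 array of a member gene stood apart, with a gap to its neighbour over the range of the group above 0.71. Chance marks about 1 group in 20. Gadd45a was at -1.61 on control array 5, the highest of its group, with the next at -2.22. Gadd45a was at -1.77 on NVP array 5, with the next at -2.37. Gadd45g was at -0.45 on Ro25 array 1, with the next at -0.62.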

How the results depend on the processing

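The 9 differences from control were recomputed for each antagonist under 11 other settings and 11 sets with arrays left out, 594 values in all. Of these, 564 kept their direction and side of the threshold, 5 gained and 5 lost a call, and 20 changed sign, none of them a call. All gains and losses of a call were with AP5. With NVP and Ro25, where 0 and 0.0155% of all genes were called, staying uncalled was nearly fixed in advance. Gadd45b was called with AP5 under all 11 settings and all 11 sets, between -1.67 and -0.91. Plk3 was called under all but the slide block, and Btg2 under all but median centring (-0.15), the slide block, the value table (another probe, -0.34) and without the arrays numbered 5. Members called with slide as a block numbered 1 in AP5 against control and 2 in AP5 against NVP. They numbered 0 in AP5 against NVP and 0 in AP5 against Ro25 under median centring, and 2 in AP5 against NVP on the first scan day. With arrays left out they numbered 2 to 4 in AP5 against control, 3 to 6 in AP5 against NVP, 2 in AP5 against Ro25 and 0 elsewhere. The calls over all genes in these sets are not given here, so these counts describe the members alone. Over all genes, AP5 against control gave 1183 calls, 165 under median centring and 41 with the slide block. AP5 against NVP gave 1118, then 121 and 108 and, on the first day, 634. AP5 against Ro25 gave 599, then 85 and 205. The causes were not tested.

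Sign changes with AP5 were those of Gadd45g under median centring (0.09) and Plk2 with the slide block (-0.16). With NVP they were Gadd45g under median centring (-0.01), Btg2 in the value table (0.07), Gadd45b as the mean of its probes (0.02) and, with the slide block, Gadd45a (0.11), Gadd45g (-0.06), Plk3 (0.15), Inhba (-0.07), Btg1 (0.13) and Bcl6 (0.07). With single arrays left out, signs changed for Inhba (-0.01 to 0.08) and Gadd45a (-0.28 to 0.01) with NVP, and for Plk2 (-0.03 to 0.10), Gadd45a (-0.06 to 0.20) and Gadd45g (-0.07 to 0.01) with Ro25. With Ro25 and the slide block they were Plk2 (-0.07), Plk3 (0.28) and Btg1 (0.06). The array numbers are shared by the groups, but only the arrays numbered 5 deviated together in every pair of groups, so the numbers were not taken as a pairing. The fit with the replicate block gave 3 members in AP5 against control (1238 genes), 4 in AP5 against NVP, 2 in AP5 against Ro25 and 0 elsewhere. In AP5 against NVP it added Gadd45a (0.43, limma adjusted p = 0.00765) and lost Inhba (-0.33, 0.0569). For comparisons other than AP5 against control, the calls of this fit over all genes are not given here. Of the 17 list genes called with AP5 against control, all 11 outside the survival list lost the call under median centring and with the slide block.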
